A study of Mus musculus with 6 samples.

Results

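Semaphorins are secreted or membrane-bound guidance proteins, and plexins, with or without the co-receptors called neuropilins, are their receptors. The mRNAs of these genes were compared between control mice and transgenic mice that overexpress HuD, in isolated hippocampal cells. The members were the genes whose symbol in the annotation of the Affymetrix mouse array names a semaphorin of classes 3 to 7, a plexin or a neuropilin. They came to 31 genes, 20 semaphorins, 9 plexins and 2 neuropilins, of 18193 genes with a probe set of a single symbol, and held 78 of the 45037 probe sets other than controls. Each gene was followed on its brightest probe set.

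The 6 arrays came from 2 control and 2 transgenic mice, with 1 array from mouse 1 and 2 arrays from mouse 2 of each group. HuD, encoded by Elavl4, is a neuronal RNA-binding protein that stabilises mRNAs of growing and plastic neurons. The cells are labelled DGCs, understood from what is known of the study as dentate granule cells, which send the mossy fibres to CA3. From the same knowledge the transgene is driven by the promoter of CaMKII alpha, which is active in excitatory forebrain neurons. Strain, age and sex of the mice are not given in the labels. The labels list a treatment of the type preservation for all samples, without naming the agent. Titles of 3 arrays, those of control mouse 1, transgenic mouse 1 and array 1 of transgenic mouse 2, carry the tag re-LCM, which the labels do not explain. The arrays tied to control mouse 2 by their descriptions are titled control 1 and control 2, so that the number of control mice behind them is open to doubt.

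A semaphorin binds through its large sema domain to a plexin, whose cytoplasmic part acts on small GTPases and so on the cytoskeleton of an axon or dendrite. Secreted class 3 semaphorins mostly need a neuropilin to reach a plexin of the A group, while membrane semaphorins of classes 4 to 7 bind plexins directly. In the dentate gyrus the system is known from the mossy fibres, the axons of granule cells, whose layering in CA3 depends on Sema6a, Plxna2 and Plxna4, and from granule cell dendrites, where Sema3f with Nrp2 and Sema5a with Plxna2 limit the number of spines and synapses.

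Values below are deposited linear intensities in the order mouse 1, mouse 2 array 1 and mouse 2 array 2, and differences are log2 of transgenic over control. Probe sets bind with unequal strength, so intensities of different genes were not set against each other. Values under 10.1, the pooled 25th percentile, were set to that floor, and each array had 23.9% to 26.4% of its probe sets there. Granule cell markers stood well above it (mean log2 values for Calb1 were 12.74 in control and 12.83 in transgenic mice, and for Prox1 9.28 and 9.16). The 3 probe sets of Elavl4 gave differences of -0.33, -0.15 and -0.73, none of them higher in the transgenic mice and all with overlapping arrays. These probe sets therefore do not check the label, transgenic means labelled transgenic throughout, and whether they bind the transgene's transcript was not examined.

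No semaphorin, plexin or neuropilin passed the test of transgenic against control mice, and neither did any other gene. Of the 31 members 25 passed a filter on low values, and 0 of these 25 were called (limma, smallest adjusted p = 0.999), against 0% of the 14678 genes tested. At an unadjusted p under 0.05 there were 0 of 25 members, against 4.31% of all genes (1.76% higher and 2.55% lower). Differences of the members tested ran from -0.47 for Plxnb2 to 0.63 for Sema6a, and 17 members had a higher and 8 a lower mean in the transgenic mice, with a median of 0.12 against 0.0026 over all genes. Quantile normalization gave 15 higher and 9 lower, and a floor at the pooled median 14 and 11. The transgenic and control arrays did not overlap for 2 members, Sema6a and Sema4d, both higher, against 8.07% of all genes (3.86% higher and 4.22% lower). A difference of at least 0.5 was found for 2 members, Sema6a and Sema4b, both higher, against 10.3% of all genes (4.14% higher and 6.17% lower). With 25 members, 2 is near the background for either measure. In samples of isolated cells, fewer cells of a type and less RNA per cell cannot be told apart.

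**Figure D1:**
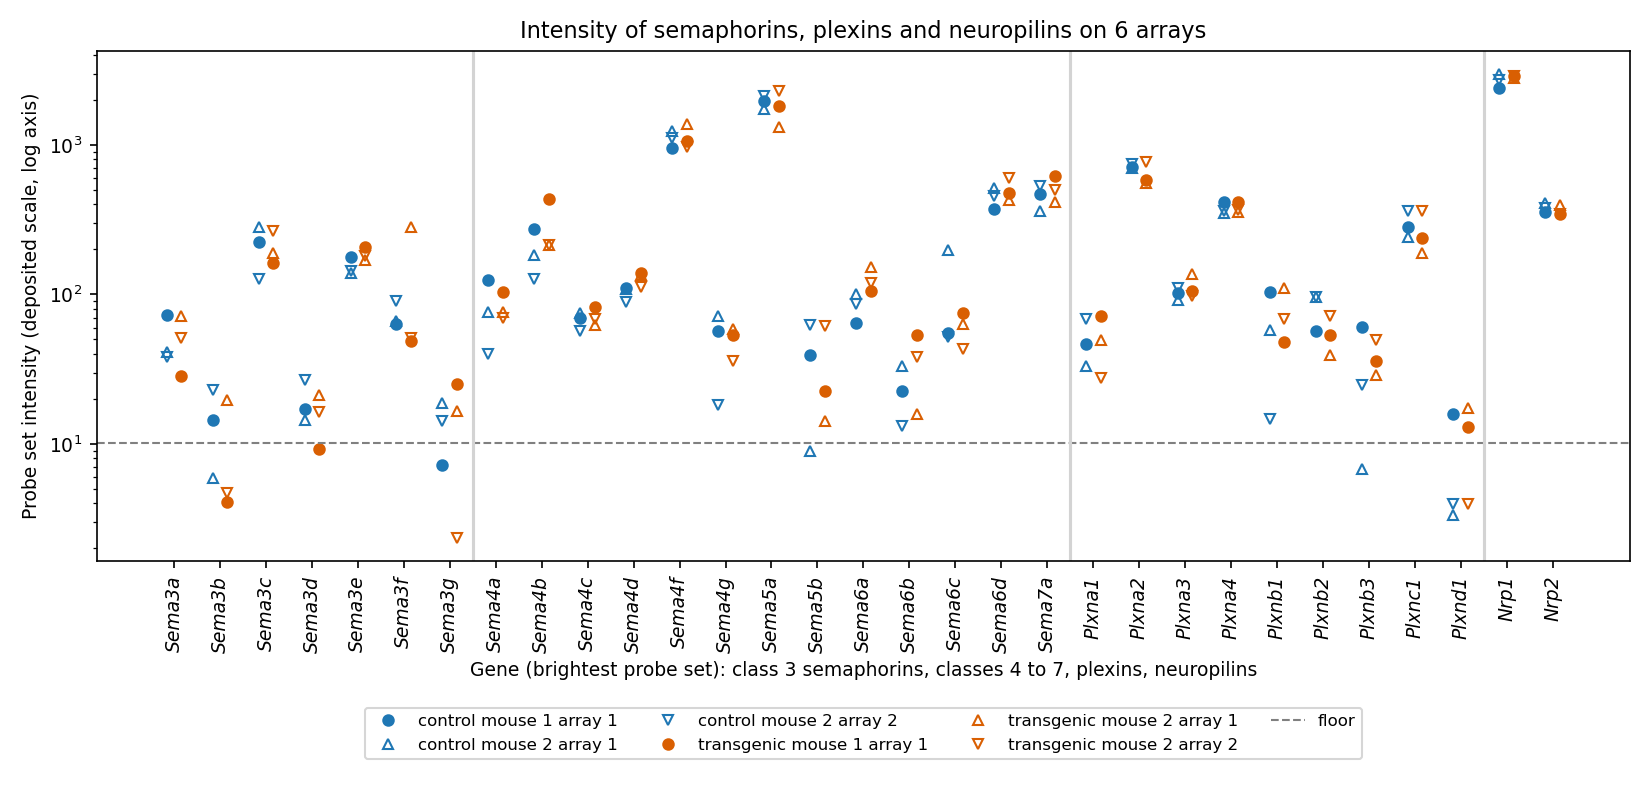
Deposited intensity (log axis) of the brightest probe set of each of the 31 members on the 6 arrays, with control arrays in blue, transgenic arrays in orange and the floor of 10.1 as a dashed line. For most members the colours intermingle, and the 6 members with an array at or under the floor are Sema3b, Sema3d, Sema3g, Sema5b, Plxnb3 and Plxnd1.

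Among the secreted class 3 semaphorins, 4 of 7 were tested, 2 with a higher and 2 with a lower mean (median 0.0044). The split rested on single mice, with 4 higher and 0 lower (median 0.16) without transgenic mouse 1 and 1 higher and 3 lower (median -0.44) without transgenic mouse 2. With the mouse as a random block it was 4 and 0 (median 0.27). Sema3a, which repels axons through Nrp1, read 73.2, 41.1 and 38.2 (control) against 28.4, 72.1 and 51.3 (transgenic). The lowest value belonged to transgenic mouse 1 and the highest to control mouse 1, with the remaining arrays in between. Its difference was -0.38 (95% interval -1.64 to 0.89), and without transgenic mouse 1 it was 0.17. Sema3f, the ligand of Nrp2, read 63.5, 66.8 and 90.8 (control) against 48.8, 284 and 50.9 (transgenic). A single array, the first of transgenic mouse 2, stood far above the second array of the same mouse, by 2.48 log2 units. The difference of Sema3f was 0.12 with that array and -0.50 without it.

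Sema3e, which signals through Plxnd1 without a neuropilin, read 179, 139.7 and 144 (control) against 209, 171 and 182 (transgenic). The transgenic arrays lay at the upper end, but that of control mouse 1 reached among them. Its difference of 0.27 (95% interval -0.26 to 0.80) kept its direction without any 1 mouse or array (0.10 to 0.43). A second, dimmer Sema3e probe set over the filter gave 0.14. Sema3c, a guidance cue that can attract axons, read 225, 281 and 128 (control) against 163, 189 and 264 (transgenic), with overlap and a difference of -0.11 (95% interval -0.71 to 0.48). Its 2 arrays of control mouse 2 differed by 1.14, more than the group difference of any member tested. Sema3b, Sema3d and Sema3g stayed under the filter with intensities between 2.34 and 26.8, and were not tested.

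Both members whose groups did not overlap, Sema6a and Sema4d, were membrane semaphorins. Over all genes 8.07% did not overlap (3.86% higher and 4.22% lower), so 2 of the 25 members tested is near the background. With 11 of these 25 in the class, this does not set the class apart. Of 13 membrane semaphorins 11 were tested, 9 with a higher and 2 with a lower mean in the transgenic mice (median 0.14). The median was 0.021 without transgenic mouse 1 and 0.036 without array 2 of control mouse 2, with 7 higher and 4 lower in both cases. It was 0.29 without control mouse 1 or without transgenic mouse 2, and 0.26 without array 1 of control mouse 2. Sema6a, a transmembrane ligand of Plxna2 and Plxna4, read 64.1, 101 and 85.7 (control) against 105, 153 and 119 (transgenic). Every transgenic array was above every control array, though the lowest transgenic and the highest control value were close. Mean log2 values were 6.27 ± 0.38 (SD, n = 2) for control against 6.90 ± 0.25 (SD, n = 2) for transgenic mice, a 1.54-fold ratio with a log2 difference of 0.63 (95% interval -0.047 to 1.30). It did not pass the test (limma, unadjusted p = 0.0619, adjusted p = 0.999, with a range of 0.303 to 1.000 over the alternatives). The lower end of this range came from the fit with the mouse as a random block, as did those given below for Sema4b, Sema4d and Plxnb2. That fit rests on an estimated correlation between arrays of a mouse that is below 0 (-0.54). Leaving out 1 mouse or array gave 0.36 to 0.89 for Sema6a, the lowest without control mouse 1. The split by title tag gave 0.99 within the tagged and 0.35 within the untagged arrays. In this split, for every gene, the only tagged control array is that of control mouse 1. The only untagged transgenic array is array 2 of transgenic mouse 2. Each value thus rests on 1 array on 1 side, and the tag cannot be told apart from the mouse among the controls. The other 2 Sema6a probe sets stayed under the filter. One lay under the floor on all arrays, and the second read 25.7, 58.7 and 21.6 (control) against 18.7, 26.5 and 42.7 (transgenic), a difference of -0.27 in the opposite direction with overlap.

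The remaining members of class 6 did not separate. Sema6d, a ligand of Plxna1, read 372, 516 and 455 (control) against 477, 428 and 603 (transgenic). The array of control mouse 1 was lowest and the second array of transgenic mouse 2 highest, with the others mixed, and the difference was 0.21 (95% interval -0.30 to 0.73). Without control mouse 1 it was 0.022. Sema6c read 55.2, 199 and 51.9 (control) against 74.6, 63.7 and 42.9 (transgenic), with the first array of control mouse 2 far above all others. Its difference of -0.26 turned to 0.22 without that array. Sema6b was not tested. Its values were 22.7, 33.2 and 13.2 (control) against 53.8, 15.8 and 38.4 (transgenic), a difference of 0.74 between overlapping groups.

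All 6 members of class 4, whose main receptors are the B plexins, were tested and had a higher mean in the transgenic mice (median 0.13, range 0.065 to 0.58). The mean of the probe sets of a gene, a floor at the pooled median, or leaving out control mouse 1 gave 5 higher and 1 lower. It was 4 higher and 2 lower with the title tag as a term, within the tagged arrays and within the untagged arrays. Leaving out control mouse 2, transgenic mouse 1, array 1 of transgenic mouse 2 or array 2 of control mouse 2 also gave 4 and 2. The other alternatives kept 6 and 0. Sema4b, a transmembrane semaphorin, had the largest difference of the class. Its intensities were 274, 184 and 127 (control) against 435, 215 and 216 (transgenic). Transgenic mouse 1 was highest and the second array of control mouse 2 lowest, while control mouse 1 lay above both arrays of transgenic mouse 2. The difference was 0.58 (95% interval -0.61 to 1.77) with mean log2 values of 7.68 ± 0.59 (SD, n = 2) for control against 8.26 ± 0.72 (SD, n = 2) for transgenic mice, and unadjusted p = 0.263 (limma, adjusted p = 0.999, 0.538 to 1.000 over the alternatives). Without transgenic mouse 1 it was 0.071, and without control mouse 1 it was 1.00.

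Sema4d, a ligand of Plxnb1 that neurons, oligodendrocytes and immune cells are known to make, read 109.8, 108 and 89.4 (control) against 139, 135 and 112 (transgenic). The groups did not overlap, but the second transgenic mouse 2 array was only just above the highest control array. Its difference was 0.33 (95% interval -0.11 to 0.77) with unadjusted p = 0.109 (limma, adjusted p = 0.999, 0.357 to 1.000 over the alternatives), and it ran from 0.25 to 0.42 in the 8 leave-outs. The split by title tag gave 0.32 within the tagged and 0.19 within the untagged arrays. A second Sema4d probe set over the filter pointed the other way. It read 38.5, 36.6 and 57.2 (control) against 38.8, 23.0 and 31.5 (transgenic), a difference of -0.38, so that the mean of the 2 probe sets differed by -0.022.

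Sema4f, Sema4c, Sema4a and Sema4g gave 0.073, 0.12, 0.065 and 0.14, each with overlap. Sema4c, known as a ligand of Plxnb2, had intensities of 56.6 to 82.8 over all arrays, and Sema4a of 40.2 to 124. Sema4g read 56.6, 71.8 and 18.1 (control) against 53.8, 59.1 and 35.6 (transgenic). In 5 of the 6 class 4 genes, all but Sema4f, the lowest of the 6 values came from the second array of control mouse 2. Among all genes tested that array was lowest for 15.2%. Without it the median of class 4 was 0.026, with 4 higher and 2 lower, and the median of all 25 members was 0.029, against 0.13 and 0.12 with it. Without transgenic mouse 1 the median of class 4 was 0.046, and without control mouse 1 it was 0.44, with the other leave-outs in between. The median of all 25 was 0.031 without array 1 of transgenic mouse 2, and 0.071 without control mouse 2 or without transgenic mouse 1.

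Sema5a, which carries thrombospondin repeats and binds Plxna2 on granule cells, was bright on all arrays. It read 1955, 1743 and 2136 (control) against 1819, 1319.7 and 2293 (transgenic). Both the lowest and the highest value came from transgenic mouse 2, whose arrays differed by 0.80, against a difference of -0.13 (95% interval -0.52 to 0.27) between the groups. Its other probe sets over the filter gave 0.11 and 0.52. Sema5b was not tested, with intensities of 8.99 to 62.9. Sema7a, a lipid-anchored semaphorin that binds Plxnc1 and integrins, read 468, 361 and 529.8 (control) against 622, 416 and 502 (transgenic). Transgenic mouse 1 was highest, and the other transgenic arrays lay within the control range. Its difference of 0.24 (95% interval -0.32 to 0.79) was 0.013 without that mouse.

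**Figure D2:**
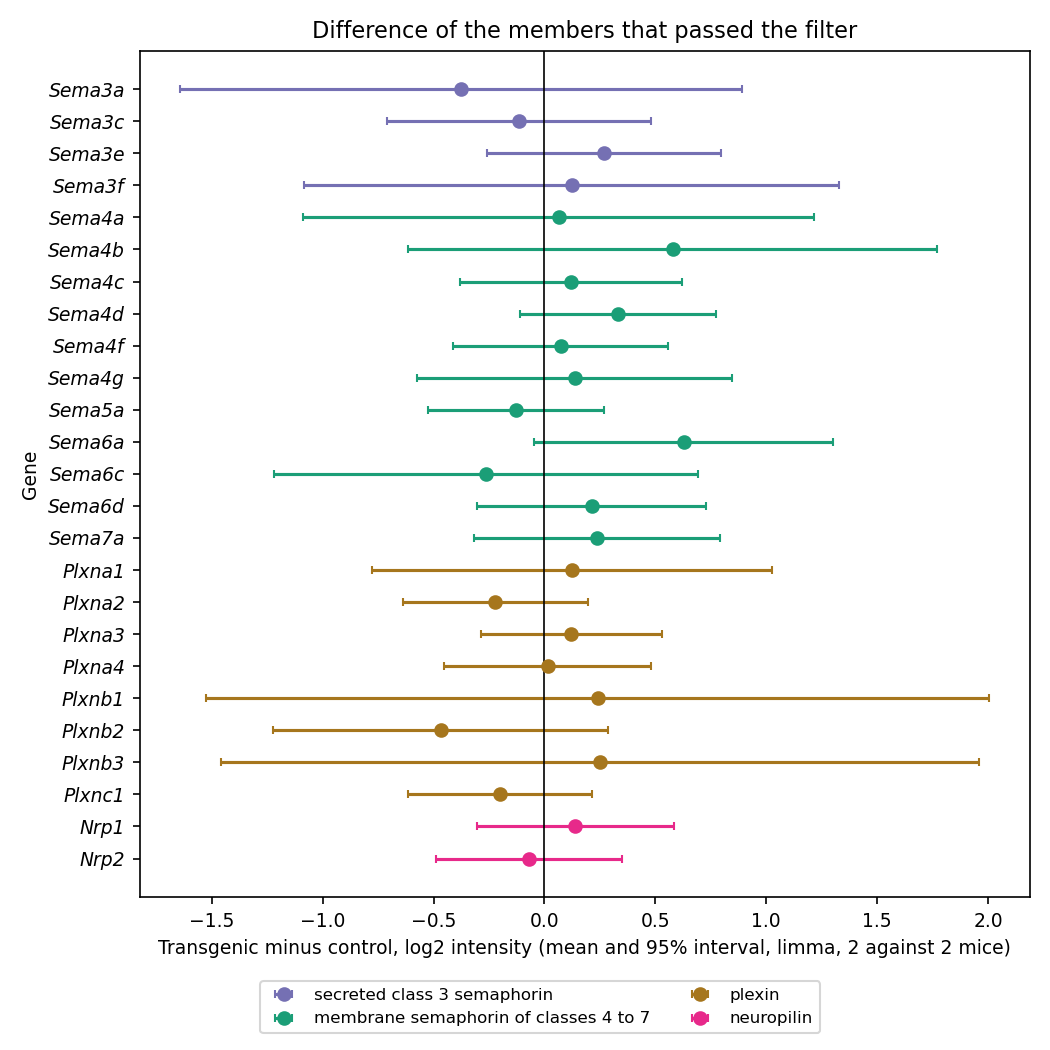
Transgenic minus control difference in log2 intensity of the 25 members tested, with 95% intervals of limma on 2 against 2 mice and colours for the class. Every interval includes 0, and those of Plxnb1 and Plxnb3 are the widest.

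Among the plexins 8 of 9 were tested, 5 with a higher and 3 with a lower mean (median 0.067), with 3 higher and 4 lower under quantile normalization and 3 and 5 with a floor at the pooled median. Their median was below 0 in 5 of the 8 leave-outs of 1 mouse or array, and ran from -0.13 without control mouse 2 (2 higher and 6 lower) to 0.12 without control mouse 1. The A plexins transduce class 3 and class 6 semaphorins. Plxna2, a receptor of Sema6a and Sema5a, read 713, 706 and 744 (control) against 583, 556 and 766 (transgenic). The 2 lowest values were transgenic, but the highest was transgenic as well. Its difference was -0.22 (95% interval -0.64 to 0.20), and the sign held in all 8 leave-outs (-0.34 to -0.11). Over the title tag it did not, with -0.32 within the tagged and 0.079 within the untagged arrays. Its 3 other probe sets gave -0.31, -0.059 and 0.028.

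Plxna4, the partner of Plxna2 in mossy fibre layering, was among the steadiest members. It read 413, 349.9 and 364 (control) against 416, 355 and 368 (transgenic), a range of 0.25 log2 units over all arrays. The difference was 0.014 (95% interval -0.45 to 0.48). The interval leaves room for differences of up to 0.48 in size. Plxna3, the main plexin for Sema3f, gave 0.12 (95% interval -0.29 to 0.53), with 91.9 to 136 over the arrays. Plxna1 read 46.6, 33.0 and 68.5 (control) against 71.3, 49.6 and 27.5 (transgenic), with the 2 arrays of control mouse 2 at opposite ends of the control range, and its difference of 0.13 went from -0.35 to 0.60 over the leave-outs.

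Plxnb2 had the most negative difference of the members. This receptor of class 4 semaphorins is known for roles in progenitors and developing granule cells. It read 56.7, 95.8 and 95.4 (control) against 53.6, 39.2 and 71.4 (transgenic). Both arrays of control mouse 2 were above all transgenic arrays, while control mouse 1 lay among them. The difference was -0.47 (95% interval -1.22 to 0.29) with mean log2 values of 6.20 ± 0.53 (SD, n = 2) for control against 5.73 ± 0.014 (SD, n = 2) for transgenic mice, and unadjusted p = 0.170 (limma, adjusted p = 0.999, 0.304 to 1.000 over the alternatives). The SD of 0.014 is that between 1 array of mouse 1 and the average of 2 arrays of mouse 2. Those 2 arrays were not close, with the first minus the second at -0.87. The difference was -0.090 without control mouse 2 and -0.84 without control mouse 1. In a fit of the title tag beside the group, tagged minus untagged arrays of Plxnb2 stood at -0.70 (SE 0.19). This fit took the 6 arrays as separate samples, and among the controls the tag cannot be told apart from the mouse. Plxnb2 was the 1 member of 25 with an unadjusted p under 0.05 for the tag (0.0108, adjusted p = 0.937 by limma). Over all genes the share was 5.14%, so 1 is near the background. In the same fit the group difference of Plxnb2 was -0.36.

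Plxnb1, the receptor of Sema4d, was the least steady member. It read 104, 58.2 and 14.6 (control) against 48.4, 111 and 68.2 (transgenic). The second array of control mouse 2 was far below all others, while control mouse 1 and the first array of transgenic mouse 2 were the highest, and the difference was 0.24 (95% interval -1.53 to 2.01). A second probe set with a much narrower spread, 45.8 to 65.1, gave -0.00068. Plxnb3, a plexin known from oligodendrocytes, read 60.8, 6.75 and 24.8 (control) against 36.0, 29.0 and 49.2 (transgenic), with the first array of control mouse 2 under the floor. Its difference was 0.25 (95% interval -1.46 to 1.96). It was 1.22 without control mouse 1 and -0.72 without control mouse 2. Plxnb3 passed the filter only just, with a mean log2 of 4.924 against a cut of 4.920. Under quantile normalization, or with a floor at the pooled 10th percentile, it was not tested.

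Plxnc1, the receptor of Sema7a, read 281, 243 and 362 (control) against 240.2, 189 and 364 (transgenic). In each group the second array of mouse 2 was highest, and the 2 arrays of transgenic mouse 2 differed by 0.95, against a group difference of -0.20 (95% interval -0.61 to 0.21). Only 2 of its 6 probe sets passed the filter, and the dimmer one gave 0.19. Plxnd1, the receptor of Sema3e that is prominent in blood vessels, was not tested. It read 15.8, 3.37 and 3.99 (control) against 12.9, 17.4 and 3.95 (transgenic), with 3 arrays under the floor.

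The neuropilins varied little between arrays on their brightest probe sets. Nrp1, the co-receptor of Sema3a and of vascular growth factors, read 2409.6, 2987 and 2708 (control) against 2914, 2825 and 2873 (transgenic). The array of control mouse 1 was lowest and the first of control mouse 2 highest, with all transgenic arrays between them. The difference was 0.14 (95% interval -0.31 to 0.58). All 4 Nrp1 probe sets passed the filter and gave 0.14, 0.075, 0.024 and 0.098, the same sign on each. Without control mouse 1 the first of these was 0.019.

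Nrp2, the co-receptor of Sema3f, read 359, 408 and 378 (control) against 346, 399 and 344 (transgenic), a range of 0.25 log2 units. Control and transgenic values overlapped, and the difference was -0.069 (95% interval -0.49 to 0.35). The interval of its brightest probe set lies within 0.5 log2 units on either side of 0. Its other 3 probe sets over the filter gave 0.15, 0.063 and -0.14.

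**Figure D3:**
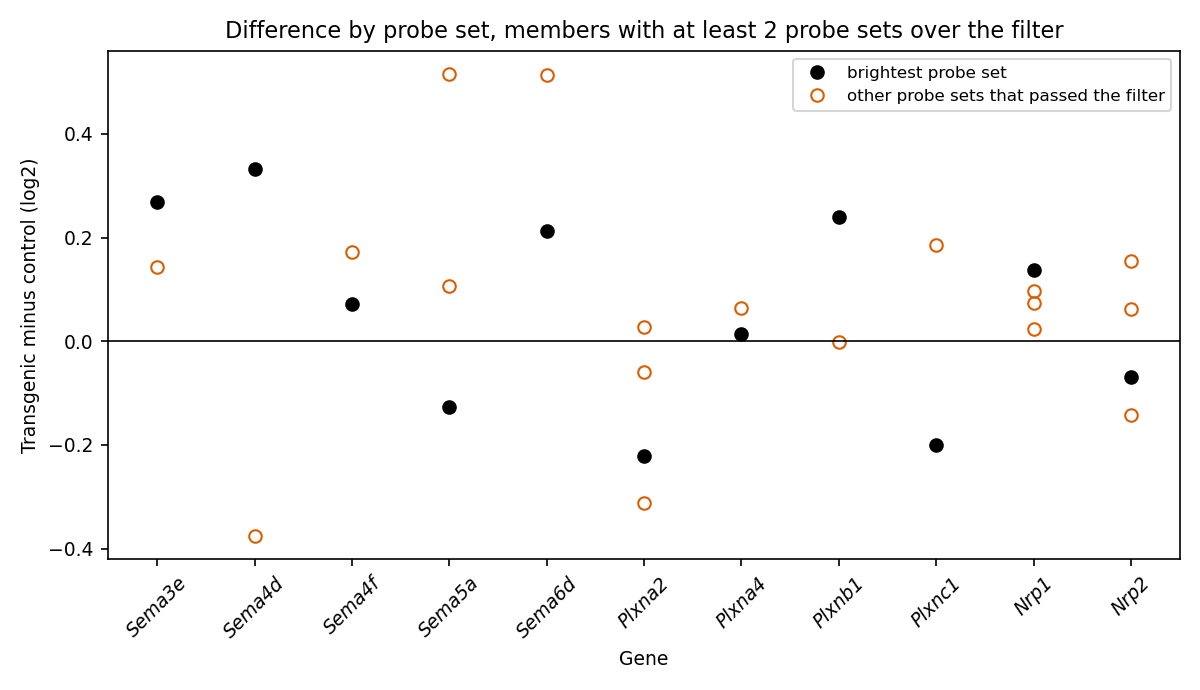
Transgenic minus control difference (log2) of each probe set over the filter, for the 11 members with at least 2 such probe sets; filled points are the brightest probe set of a gene. For 5 genes all probe sets are higher, and for 6, among them Sema4d and Plxna2, they lie on both sides of 0.

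Probe sets of 1 gene did not always give 1 direction. Of the 78 probe sets 43 passed the filter, 30 with a higher and 13 with a lower mean in the transgenic mice. For 11 members 2 or more passed. In 5 of them (Sema3e, Sema4f, Sema6d, Plxna4 and Nrp1) all were higher, in 0 all were lower, and in 6 (Sema4d, Sema5a, Plxna2, Plxnb1, Plxnc1 and Nrp2) the signs were mixed. The widest gap was that of Sema4d, and the next that of Sema5a. Probe sets of 1 gene are not separate genes, and shares over all genes were not counted for these directions. Where the probes of a set lie on the transcript was not examined.

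Set beside each other, ligands and receptors known to pair gave these values. In the mossy fibre group, Sema6a was at 0.63, with its receptors Plxna2 at -0.22 and Plxna4 at 0.014. For Sema3a and Nrp1 the differences were -0.38 and 0.14. For Sema3f, Nrp2 and Plxna3 they were 0.12, -0.069 and 0.12. Sema4d stood at 0.33 and Plxnb1 at 0.24, and Sema4c at 0.12 and Plxnb2 at -0.47. Sema7a was at 0.24 and Plxnc1 at -0.20. Sema5a was at -0.13, beside the -0.22 of Plxna2. None of these differences passed the test. All are values of the brightest probe sets. The second probe sets of Sema4d and Plxnb1 gave -0.38 and -0.00068. For Sema5a, Plxna2, Plxnc1 and Nrp2 too, the probe sets over the filter had mixed signs.

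The spread between arrays labelled as the same mouse was as large as the differences between groups, for the members and over all genes. The median absolute group difference was 0.20 over the members tested and 0.15 over all genes tested. For 21 of the 25 members tested the 2 arrays of control mouse 2 or of transgenic mouse 2 differed by more than the groups did. This count sets single arrays against averages over mice, and its share over all genes was not counted. The median absolute difference between the 2 arrays was 0.29 in control mouse 2 and 0.48 in transgenic mouse 2, against 0.28 and 0.30 over all genes tested. Of the 2 arrays of transgenic mouse 2 only the first carries the re-LCM tag, so their difference is also one between tagged and untagged arrays. Both arrays of control mouse 2 are without the tag, and whether they come from 1 mouse is open to doubt. Over the 6 arrays the members had a median range of 0.95 log2 units, and all genes one of 0.69. For 16 members the group difference was smaller than its standard error, and for 1, Sema6a, it was more than 2 standard errors. Leaving out 1 mouse or array moved the difference by over 1.5 times for 24 of 25, with Sema4d the exception. The shares over all genes were not counted for these measures, so they do not set the members apart. The median standard error was 0.21 over the members and 0.20 over all genes tested.

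**Figure D4:**
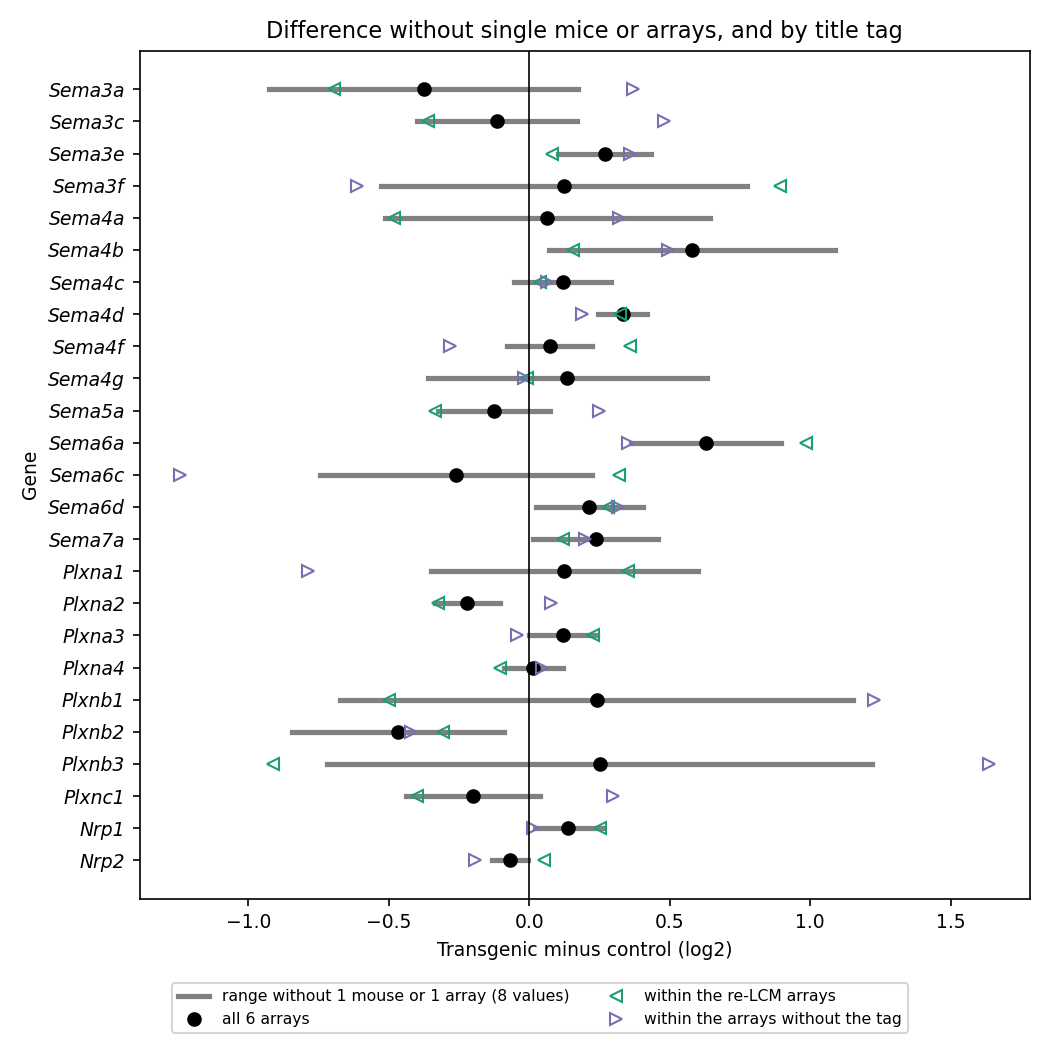
Difference of the 25 members with all 6 arrays (black), the range when 1 mouse or 1 array is left out (grey bar), and the values within the arrays with and without the re-LCM tag (triangles). Each triangle has a single array on 1 side of the comparison. Sema4b, Sema4d, Sema6a, Sema6d, Sema7a, Sema3e, Nrp1, Plxna2, Plxnb2 and Nrp2 have a grey bar on 1 side of 0, and that of Sema4d is short and clear of 0.

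Markers of other cell types varied between the arrays too. Mean levels of the 13 granule cell markers, each centred on its mean, were -0.0025, 0.025 and 0.054 (control) against 0.015, -0.068 and -0.024 (transgenic) (5 higher and 8 lower in the transgenic mice, median -0.086). The 9 oligodendrocyte markers tested of 12 stood at 0.91, 0.049 and -0.29 (control) against -0.59, 0.022 and -0.095 (transgenic), and all 9 had a lower mean in the transgenic mice (median -0.65). Astrocyte markers (9 of 10 tested, 8 lower, median -0.34) had 0.45, 0.10 and -0.21 (control) against -0.18, -0.13 and -0.034 (transgenic). Microglia markers (6 of 10 tested, 6 lower, median -0.31) had 0.31, 0.14 and -0.068 (control) against -0.23, -0.13 and -0.019 (transgenic). Control mouse 1 was highest in each of these 3 glial lists. Mean log2 values of the 9 oligodendrocyte markers ran from 6.21 (control) and 5.01 (transgenic) for Sox10 to 12.32 and 12.05 for Mbp.

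Interneuron markers (8 of 10 tested, 7 lower, median -0.39) and endothelial and mural markers (6 of 10 tested, 5 lower, median -0.29) were highest on the array of control mouse 1 as well. Of 10 pyramidal cell markers 6 were tested, 4 lower (median -0.24), and of 3 oligodendrocyte precursor markers 2, both higher (0.28). The mean level of the 8 plexins was 0.23, -0.24 and -0.072 (control) against 0.012, -0.034 and 0.098 (transgenic), but control mouse 1 was the highest array for only 1 of the 8, Plxnb3. That of the 11 membrane semaphorins was -0.021, 0.16 and -0.37 (control) against 0.24, 0.035 and -0.047 (transgenic), with transgenic mouse 1 highest and the second array of control mouse 2 lowest. The part of these other cells in the members' values was not tested.

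**Figure D5:**
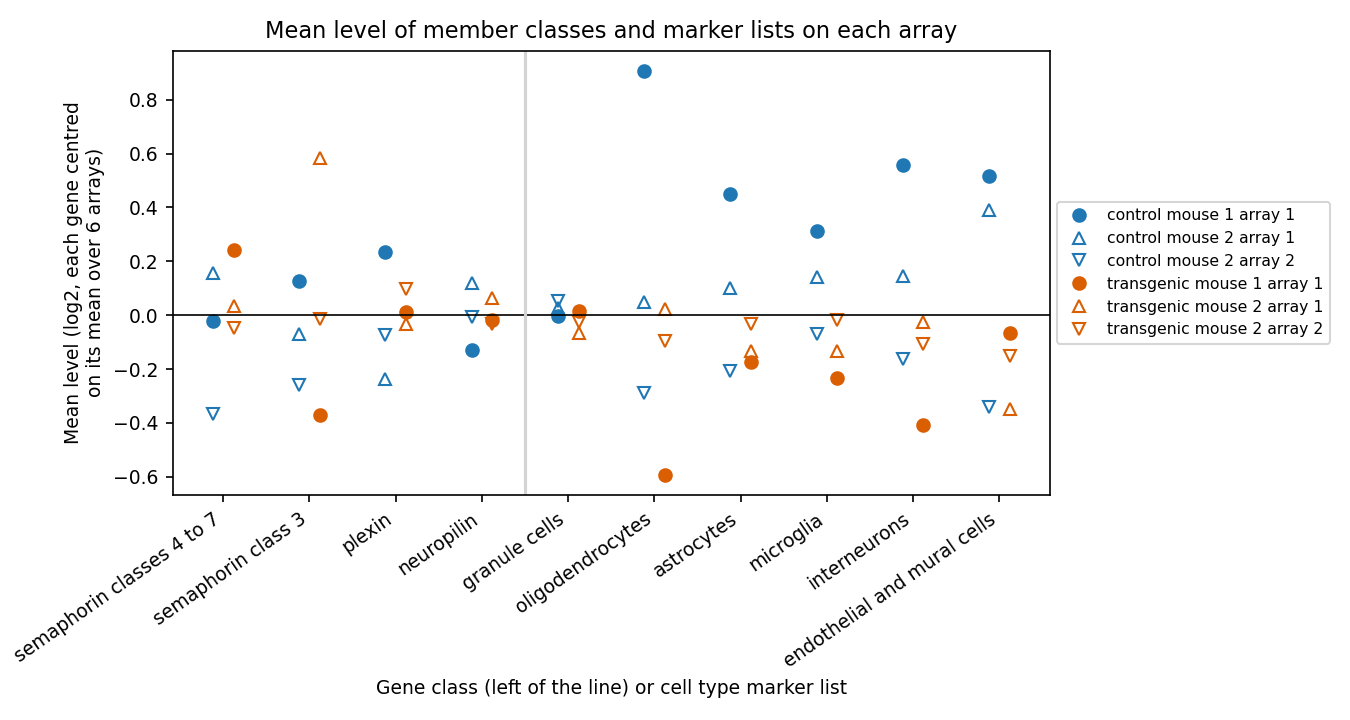
Mean log2 level of each member class and marker list on each array, with every gene centred on its mean over the 6 arrays. Control mouse 1 is highest for oligodendrocyte, astrocyte, microglia, interneuron and endothelial markers, while granule cell markers stay between -0.068 and 0.054.

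Other genes of semaphorin signalling gave 0 calls as well (limma). Of the co-receptors and receptor partners 5 of 14 listed were tested, 3 higher and 2 lower (median 0.055). L1cam, a neural adhesion molecule that joins Nrp1 in a receptor complex, gave -0.20 (SE 0.17), Kdr, the vascular growth factor receptor, 0.35 (SE 0.25), and Tyrobp, a microglial adaptor that also counts as a microglia marker here, -0.60 (SE 0.32). Leaving out 1 mouse or array gave -0.31 to -0.097 for L1cam, 0.11 to 0.59 for Kdr and -1.01 to -0.18 for Tyrobp, with the value nearest 0 without control mouse 1 for L1cam and without transgenic mouse 1 for the other two. Of the cytoplasmic signalling genes 33 of 37 were tested, 18 higher and 15 lower (median 0.026). Fyn, a tyrosine kinase downstream of Sema3a, read 846, 705 and 689.6 (control) against 554, 609 and 563 (transgenic). All transgenic arrays were below all control arrays, with a difference of -0.43 (SE 0.18) and unadjusted p = 0.0630 (limma).

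Rras, a small GTPase that plexins inactivate, read 47.8, 37.9 and 58.2 (control) against 5.17, 31.9 and 37.2 (transgenic). The transgenic arrays were again all lower, but that of transgenic mouse 1 was under the floor and the groups nearly met, and the difference of -1.35 (SE 0.60) was -0.46 without transgenic mouse 1. Mical3, of the flavoprotein family that oxidises actin downstream of plexins, gave 0.47 (SE 0.22), and 0.22 without transgenic mouse 1. Of the matrix and proteoglycan partners all 8 listed were tested, 6 higher and 2 lower (median 0.075). Gpc1, a heparan sulphate proteoglycan, was the 1 gene of the 3 lists with an unadjusted p under 0.05, against 4.31% of all genes. It read 115, 137 and 156 (control) against 223, 212 and 167 (transgenic), with no overlap and a difference of 0.66 (SE 0.20) (limma, unadjusted p = 0.0256, adjusted p = 0.999). Leaving out control mouse 1, transgenic mouse 1 or array 1 of transgenic mouse 2 took its unadjusted p to 0.111, 0.110 and 0.0645 (limma), and the difference was 0.92 within the tagged and 0.19 within the untagged arrays. Tnr gave 0.19 (SE 0.15) and Bcan -0.11 (SE 0.16), both components of the perineuronal matrix. Tnr was at 0.046 without array 1 of control mouse 2.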

How the data were processed

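Total RNA was measured on 6 Affymetrix mouse expression arrays. Linear intensities per probe set were deposited, scaled so that each array's mean over 45101 probe sets, with 2% trimmed at either end, came to 150. The program and background correction used by the authors were not given in the sources used here. The 64 control probe sets were left out. Intensities were set to a floor at the pooled 25th percentile and taken to log2. Probe sets with a mean log2 above the median of all (4.92, an intensity of 30.3) were tested, 1 per gene, that of the highest mean, together with probe sets of no single symbol. This gave 14678 items called genes, 11138 of them named. Gene symbols came from the platform annotation, and all 31 members matched a RefSeq gene table by Entrez identifier with the same symbol.

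Arrays of a mouse were averaged, and 2 transgenic were compared with 2 control mice with limma 3.58.1 (lmFit, eBayes; R 4.3.3) (2 residual and 2.7 prior degrees of freedom), with Benjamini-Hochberg adjustment over all genes and a threshold of 0.05. Their number limits the precision. Members, gene lists and tests were chosen with earlier results of these data known. All members are accounted for. Full values go to members with an unadjusted p under 0.05, a difference of at least 0.5 or no overlap, and to further members, chosen after their values were seen, that illustrate a class. Of each pathway list the 3 members of smallest p are named. Alternatives changed the scaling, floor, filter, probe set rule, unit of replication, title tag, mouse number, variance model and which mice or arrays entered.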

Additional observations from a re-analysis of the deposited data

How the results depend on the processing

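No member was called under any alternative that gave a test (limma, 0 of the members tested in each). The count of all genes called was 0 in all of them but 1, a variance trend with robust variance, which called 1 gene, not a member. Genes at an unadjusted p under 0.05 numbered 632, against 1770 with the mouse as a random block, where the estimated correlation of -0.54 between arrays of a mouse goes below 0, 1802 with no low filter, 990 without control mouse 2 and 1062 without transgenic mouse 2. Members at that level numbered 0 to 3, the 3 being Sema6a, Sema4d and Plxnb2 with the random block. The median difference of the members was 0.065 with the floor at the pooled median, 0.050 with the title tag as a term, 0.051 within the tagged and 0.19 within the untagged arrays, and 0.029 to 0.12 over leave-outs. The mouse number pairs nothing in the labels, and deviations of the 2 mice numbered 1 correlated at 0.033 across genes. The fit with the mouse number as a replicate block called 0 genes and put 584 genes and 2 members below an unadjusted 0.05. Its median over members was 0.093.

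Of the 25 members 7 kept their direction in all alternatives run (Sema3e, Sema4b, Sema6a, Sema6d, Sema7a, Nrp1 and Plxnb2). Quantile normalization turned Plxna4 (-0.0022). With the floor at the pooled median, the direction turned for Sema4g (-0.097), Plxnb1 (-0.071) and Plxnb3 (-0.25). Averaging the probe sets of a gene turned Sema4d (-0.022), Sema5a (0.17) and Nrp2 (0.0013). With 6 arrays as separate samples it turned for Plxna1 (-0.038) and Sema3c (0.0038). With the mouse as a random block it turned for Plxna1 (-0.18), Sema3a (0.24) and Sema3c (0.11). With the mouse number as a replicate block it turned for Plxna1 (-0.038) and Sema3c (0.0038). With the title tag as a term it turned for Sema4a (-0.081), Sema4g (-0.013), Plxna1 (-0.22), Plxna4 (-0.029) and Sema3c (0.060). Within the tagged arrays it turned for Sema4a (-0.48), Sema4g (-0.0073), Sema6c (0.32), Nrp2 (0.051), Plxna4 (-0.10), Plxnb1 (-0.50) and Plxnb3 (-0.91). Within the untagged arrays it turned for Sema4f (-0.28), Sema4g (-0.018), Sema5a (0.25), Plxna1 (-0.79), Plxna2 (0.079), Plxna3 (-0.044), Plxnc1 (0.30), Sema3a (0.37), Sema3c (0.48) and Sema3f (-0.61). Over the 8 leave-outs of 1 mouse or 1 array, the direction turned in at least 1 for these ranges of difference: Sema4f -0.079 to 0.22, Sema3a -0.93 to 0.17, Sema3c -0.40 to 0.17, Sema3f -0.53 to 0.77, Elavl4 -0.66 to 0.0037, Sema4a -0.52 to 0.64, Sema4g -0.36 to 0.63, Sema6c -0.75 to 0.22, Plxna4 -0.090 to 0.12. The remaining ranges that crossed 0 were Plxnb1 -0.68 to 1.15, Plxnb3 -0.72 to 1.22, Sema4c -0.053 to 0.29, Plxna1 -0.35 to 0.60, Bcan -0.22 to 0.011, Sema5a -0.33 to 0.072, Plxna3 -0.00020 to 0.24, Plxnc1 -0.44 to 0.037. The cause of these turns was not tested. Low signal over background limits Sema3b, Sema3d, Sema3g, Sema5b, Sema6b and Plxnd1, which were not tested, and Plxnb3, which passed the filter only just.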
